A study of Mus musculus with 4 samples.

Results

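The 10 genes described here make the parts of the major histocompatibility complex (MHC) class I pathway in the mouse: the heavy chains H2-K1, H2-D1 and H2-T23, the light chain B2m, the peptide transporter and loading genes Tap1, Tap2 and Tapbp, and the inducible proteasome subunits Psmb8, Psmb9 and Psmb10. They were taken by symbol from the 19737 genes of the deposited count matrix, and each of the 10 symbols was found once. The rule names symbols and uses no measured value, but the genes were chosen with earlier results of these data known. The cells were live CD11b+ brain cells from 20 mice, profiled 24 h after a single intravenous dose of 10 mg/kg antibody. All mice carried, on both alleles, a transferrin receptor with the human apical domain (TfRmu/hu). Of these, 8 were wild type (WT) for the amyloid precursor protein gene and 12 carried the App gene with the SAA mutations knocked in on both alleles (AppSAA), a model of amyloid pathology driven from the endogenous App locus. ATV:4D9 is the mouse TREM2-activating antibody 4D9 joined to a transport vehicle that binds the human receptor part, 4D9 is the same antibody without the vehicle, and ATV:ISO is the control antibody on the vehicle. The deposited cell annotation writes the control arm as ATV-DNP02, which is read here as ATV:ISO. The 5 groups of 4 mice were WT ATV:ISO, WT ATV:4D9, AppSAA ATV:ISO, AppSAA 4D9 and AppSAA ATV:4D9. The mice were processed in 4 pools of 5, with all groups in every pool, and a replicate number below is a pool number. A WT ATV:ISO mouse, replicate 4, was recorded as female and the others as male.

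Class I molecules carry peptides from proteins made inside the cell to the surface, where CD8+ T cells read them. The proteasome cuts the proteins, Tap1 and Tap2 together pump the peptides into the endoplasmic reticulum, Tapbp (tapasin) bridges the pump to empty class I molecules, and a heavy chain leaves with B2m and a peptide bound. In cells exposed to interferon, Psmb8, Psmb9 and Psmb10 take the place of the constitutive catalytic subunits Psmb5, Psmb6 and Psmb7, giving the immunoproteasome. Microglia in the healthy brain are known for low surface class I, and raised class I transcripts are known from microglia near amyloid plaques and in interferon-responsive microglia.

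Of the 10 genes, 8 lie in the MHC region of chromosome 17 (coordinates below are gene spans in GRCm38, the build named in the labels as mm10). Tapbp spans chr17:33915899-33929292 on the plus strand and H2-K1 spans chr17:33996017-34000347 on the minus strand. Psmb9 (chr17:34181987-34187764, minus), Tap1 (chr17:34187553-34197225, plus), Psmb8 (chr17:34197721-34201454, plus) and Tap2 (chr17:34203527-34216321, plus) follow each other. H2-D1 spans chr17:35262730-35267499 on the plus strand and H2-T23 spans chr17:36029773-36032855 on the minus strand. The other two are B2m at chr2:122147686-122153083 on the plus strand and Psmb10 at chr8:105935735-105938444 on the minus strand. In these spans Psmb9 and Tap1 overlap at their 5′ ends, on opposite strands, whereas the RefSeq starts used below leave a gap between them. H2-K1, H2-D1 and H2-T23 are close paralogs among many class I genes, and how the authors' counting shared out reads that fit several of them was not tested, so the split of UMIs between heavy chain genes is uncertain.

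The upstream sequences of these genes are printed because class I promoters are textbook targets of interferon and NF-kB signalling, and because interferon regulators are described below. RefSeq promoters (GRCm38.p6, 300 bases each, from 250 bases before to 50 after the start) were found for 9 of the 10 genes. They were searched on both strands for an interferon-stimulated response element core (ISRE, written GAAANNGAA or GAANNGAAA, the second spelling added after the sequences were seen), for a gamma-activated site (GAS, TTCNNNGAA) and for an NF-kB site. The first spelling was found in 2 of the 9 promoters, those of B2m and H2-T23, against 8.56% of 32851 promoters. With both spellings an ISRE core was found in 4, adding H2-D1 and H2-K1, whose matches were seen before that spelling was added, against 14.8% of promoters. An NF-kB match was found in 3, B2m, H2-D1 and H2-K1, against 8.46% of all promoters, and a GAS in Psmb8 alone, against 8.3%. The matches are descriptions of letters and not shown binding sites. The lines below give the last 200 bases before the RefSeq start, 5′ to 3′ on the gene's own strand, with motif matches in capitals (NF-kB and ISRE in B2m, H2-K1 and H2-D1, GAS in Psmb8), and all 225 bases between the start of Psmb9 and that of Tap1 on the plus strand, where none of the motifs was found.
H2-K1, chr17:34000348-34000547, minus strand: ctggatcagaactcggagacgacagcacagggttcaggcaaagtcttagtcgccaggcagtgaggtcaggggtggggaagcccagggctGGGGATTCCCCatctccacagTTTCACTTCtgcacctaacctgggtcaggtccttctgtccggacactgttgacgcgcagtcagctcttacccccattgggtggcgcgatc
H2-D1, chr17:35262894-35263093, plus strand: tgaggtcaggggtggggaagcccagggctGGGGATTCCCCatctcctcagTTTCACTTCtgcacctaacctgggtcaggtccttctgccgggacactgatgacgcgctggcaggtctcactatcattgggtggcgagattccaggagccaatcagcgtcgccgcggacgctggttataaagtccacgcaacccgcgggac
B2m, chr2:122147487-122147686, plus strand: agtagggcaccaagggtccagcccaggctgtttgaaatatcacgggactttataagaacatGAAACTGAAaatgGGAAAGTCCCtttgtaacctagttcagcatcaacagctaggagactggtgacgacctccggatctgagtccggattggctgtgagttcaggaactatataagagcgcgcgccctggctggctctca
Psmb8, chr17:34197995-34198194, plus strand: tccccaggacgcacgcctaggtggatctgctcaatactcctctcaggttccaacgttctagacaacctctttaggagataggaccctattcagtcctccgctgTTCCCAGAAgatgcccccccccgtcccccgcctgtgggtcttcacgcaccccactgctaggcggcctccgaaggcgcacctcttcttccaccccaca
Between Psmb9 and Tap1, chr17:34187331-34187555, plus strand: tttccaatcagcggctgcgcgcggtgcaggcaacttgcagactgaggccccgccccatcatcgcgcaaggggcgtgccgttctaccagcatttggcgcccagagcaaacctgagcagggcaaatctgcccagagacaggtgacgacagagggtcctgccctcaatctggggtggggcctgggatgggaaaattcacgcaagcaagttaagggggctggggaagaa
The H2-K1 and H2-D1 promoters shared an unbroken run of 47 bases that held the NF-kB match of both and began 201 bases before the H2-D1 start, so its first base is not in the H2-D1 line. In H2-K1 the NF-kB match began 111 bases and the ISRE core 90 bases before the start, and in H2-D1 they began 171 and 150 bases before it. In B2m the order was the opposite, with the ISRE core at 139 and the NF-kB match at 126 bases. By the RefSeq starts, Tap1 and Psmb9 begin 226 bases apart and face away from each other, whereas their gene spans above overlap. The stretches printed for Psmb8, for H2-D1 and between Psmb9 and Tap1 also lie inside the gene spans above, so the sources differ on these starts.

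Counts of unique molecular identifiers (UMIs, 1 per captured transcript) were summed per mouse over 74758 cells, at 2193 to 6126 cells and 17150296 to 102446549 UMIs per mouse. Levels per mouse are given as normalised CPM (a gene's UMIs over the mouse's UMI total, the total scaled by edgeR's TMM factor), and fold changes with adjusted p come from edgeR's quasi-likelihood test over all 14058 genes tested, called at an adjusted p under 0.05. All 10 genes passed the filter on low counts. Where groups are said below not to overlap, the share of all genes that separated in the same way was not counted. The labelled cell type was checked on 7 microglia markers, which summed to 13520 to 25040 CPM per mouse, while 6 markers of T and NK cells summed to at most 2.279 CPM. The median UMIs per cell ran from 6859 to 8173.5 in WT ATV:ISO mice and from 13479 to 17290 in WT ATV:4D9 mice. In AppSAA mice it was 8444.5 to 9883.5 with ATV:ISO, 8293 to 11552.5 with 4D9 and 13560 to 16475 with ATV:4D9. Between pools, 543 of 74212 barcode sequences were seen more than once. In sums over all cells of a mouse, fewer cells of a type and less RNA per cell of that type cannot be told apart.

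The heavy chains and B2m were higher in AppSAA than in WT mice, with or without ATV:4D9. H2-K1 was 400.9, 451.9, 408.9 and 475.7 normalised CPM in the 4 WT ATV:ISO mice (pools 1 to 4) and 853.6, 756.9, 915.8 and 709.0 in the AppSAA ATV:ISO mice. With ATV:4D9 it was 729.2, 559.1, 601.6 and 615.3 in WT mice and 1195, 1053, 1350 and 1027 in AppSAA mice. The lowest level of each of these sets of 4 was above the highest level of WT ATV:ISO, and AppSAA ATV:4D9 mice stood above all others.

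H2-D1, the other classical heavy chain measured here, had a different order. It was 612.7, 752.8, 575.9 and 618.3 normalised CPM in WT ATV:ISO and 862.7, 694.0, 616.9 and 584.1 in WT ATV:4D9 mice, which overlapped. AppSAA mice held 1525, 1598, 1398 and 1061 with ATV:ISO, 1467, 1615, 1232 and 1225 with 4D9 and 1436, 1421, 1539 and 1084 with ATV:4D9. The 3 AppSAA groups overlapped each other and all stood above every WT mouse.

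B2m, the light chain shared by all class I molecules, followed H2-D1. Its normalised CPM was 1437, 1572, 1740 and 1766 in WT ATV:ISO, 1999, 1635, 1929 and 1890 in WT ATV:4D9, 2789, 3033, 3200 and 2915 in AppSAA ATV:ISO, and 3054, 2931, 3717 and 3012 in AppSAA ATV:4D9 mice. H2-T23, the non-classical heavy chain Qa-1, was 185.7, 201.0, 174.0 and 164.2 in WT ATV:ISO and 171.4, 134.7, 123.4 and 123.3 in WT ATV:4D9 mice. In AppSAA mice H2-T23 was 249.3, 267.5, 259.6 and 205.2 with ATV:ISO and 289.4, 297.6, 307.2 and 217.1 with ATV:4D9. With 4D9, B2m was 2780 to 3050 and H2-T23 208.9 to 266.8. All AppSAA mice were thus above all WT mice for both genes.

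Tap1 had the widest spread between groups of the transport and loading genes. It was 39.0, 31.04, 30.76 and 33.84 normalised CPM in WT ATV:ISO, 75.06, 52.79, 50.99 and 53.99 in WT ATV:4D9, 47.66, 45.11, 47.55 and 43.93 in AppSAA ATV:ISO, and 120.8, 91.63, 106.5 and 89.52 in AppSAA ATV:4D9 mice. None of these 4 groups overlapped another, and WT mice given ATV:4D9 were above AppSAA mice given ATV:ISO. Tap2, its partner in the transporter, ran only from 57.96 to 83.6 in the groups other than AppSAA ATV:4D9 and from 69.89 to 101.6 in that group. Tapbp was 134.0 to 155.0 in WT ATV:ISO, 124.5 to 151.8 in WT ATV:4D9, 151.7 to 167.7 in AppSAA ATV:ISO and 181.9 to 221.3 in AppSAA ATV:4D9 mice, the latter above all other mice.

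The immunoproteasome genes were highest in AppSAA mice given ATV:4D9. Psmb8 was 271.2, 245.2, 217.9 and 223.6 normalised CPM in WT ATV:ISO, 382.5, 279.8, 286.5 and 299.9 in WT ATV:4D9, 332.7, 325.7, 292.2 and 279.6 in AppSAA ATV:ISO, and 543.2, 430.6, 445.9 and 389.4 in AppSAA ATV:4D9 mice. Psmb9 was 98.84, 95.19, 84.0 and 81.22 in WT ATV:ISO, 107.5, 82.0, 82.88 and 82.8 in WT ATV:4D9, 106.2, 106.6, 101.8 and 90.47 in AppSAA ATV:ISO, and 160.4, 142.1, 150.5 and 124.5 in AppSAA ATV:4D9 mice. Psmb10 was 100.6 to 127.1 in WT ATV:ISO and 108.5 to 147.5 in WT ATV:4D9 mice. It was 212.1, 157.1, 171.5 and 142.8 in AppSAA ATV:4D9 mice and 99.2 to 127.3 in both other AppSAA groups. Every AppSAA ATV:4D9 mouse was above every mouse of the other 4 groups for Psmb8 and Psmb9, whereas for Psmb10 its lowest value, 142.8, was below the highest WT ATV:4D9 value, 147.5. Pool 1 held the highest mouse of every group for Psmb8 and Psmb10, and of every group but AppSAA ATV:ISO for Psmb9.

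**Figure D1:**
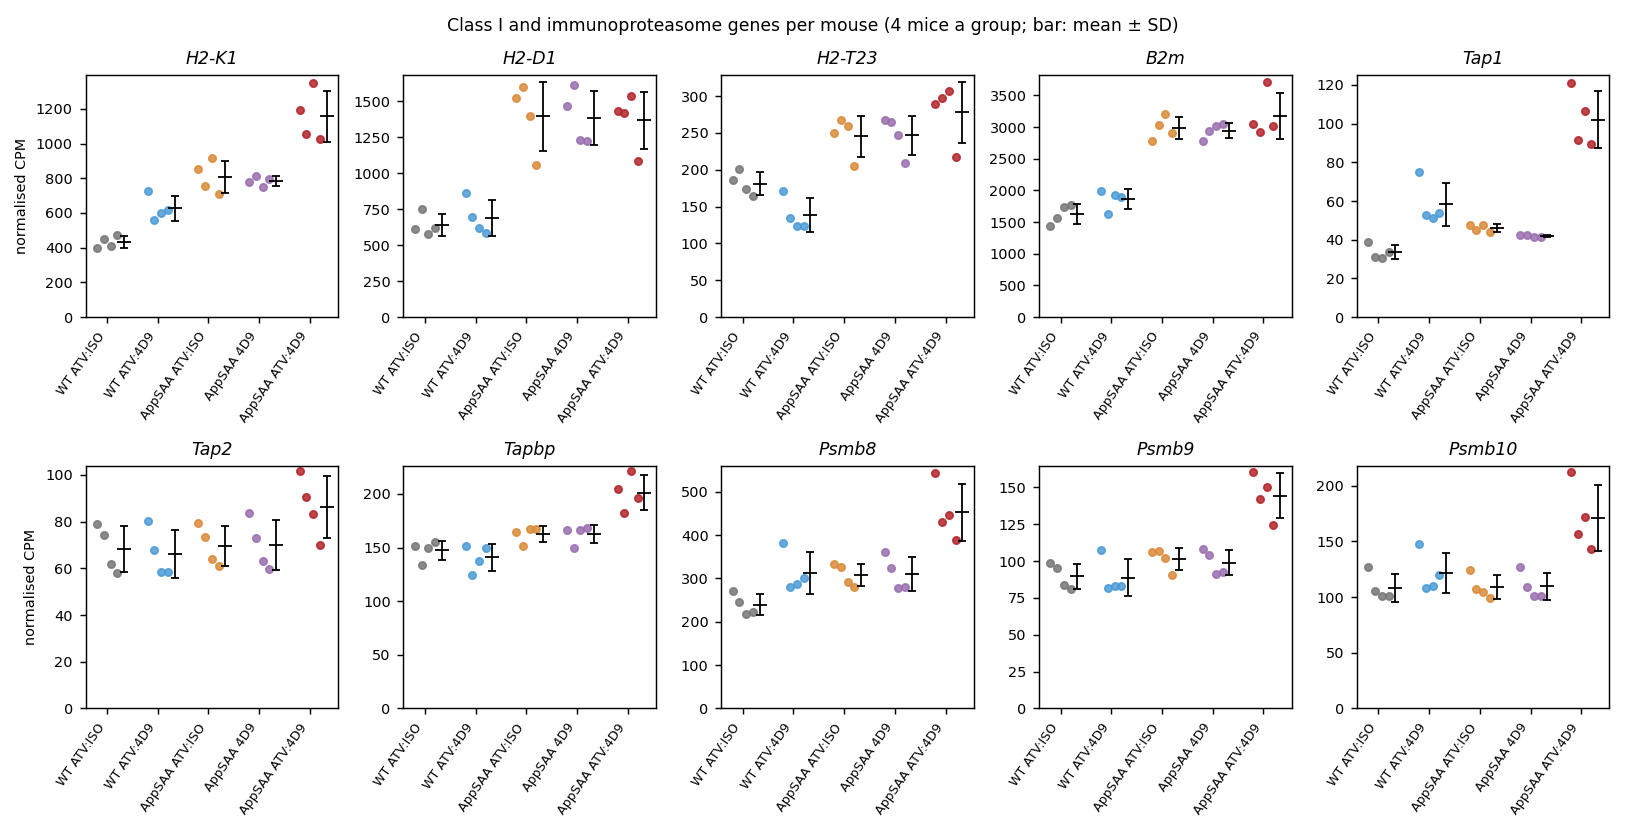
Normalised CPM (y axis, from 0) of each of the 10 genes in every mouse, by group (x axis), with points in pool order and a bar for the mean ± SD of 4 mice. H2-D1, B2m and H2-T23 separate all WT from all AppSAA mice, and 9 of the 10 genes, all but H2-D1, are highest on average in AppSAA mice given ATV:4D9.

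The comparison of AppSAA with WT mice under ATV:ISO asks how class I expression differed with genotype in mice given the control antibody. Of the 10 genes, 6 rose and none fell, against 14.4% of all genes called higher and 13.7% called lower. H2-D1 rose 2.181-fold (log2 1.13 ± 0.15 SE, adjusted p = 6.75e-06), H2-K1 1.862-fold (adjusted p = 1.25e-06) and B2m 1.832-fold (adjusted p = 3.29e-07). Tap1 rose by 0.45 ± 0.11 on the log2 scale (adjusted p = 0.0052), H2-T23 by 0.44 ± 0.12 (adjusted p = 0.0115) and Psmb8 by 0.36 ± 0.12 (adjusted p = 0.026), each higher in 4 of 4 AppSAA mice than in any WT mouse. The log2 differences of Tap2 (0.03), Tapbp (0.14), Psmb9 (0.17) and Psmb10 (0.00) did not pass the test. Per cell, Tap2 (0.26, adjusted p = 0.0188) and Psmb9 (0.41, adjusted p = 0.00358) were called too, giving 8 of 10 beside 22.9% of all genes called higher. The median log2 difference of the 10 genes was 0.40, beside -0.06 over all genes tested. With the pool as a block, Tapbp (0.15, adjusted p = 0.00589) and Psmb9 (0.18, adjusted p = 0.0148) were also called, in a fit that called 51.0% of all genes. With totals not scaled by TMM, a setting chosen after the data were seen, H2-T23 (0.25, adjusted p = 0.0514) and Psmb8 (0.18, adjusted p = 0.0581) were not called. Psmb8 was also not called without WT ATV:ISO replicate 3 (adjusted p = 0.0798), without WT ATV:ISO replicate 4, the female mouse (0.0731), or without AppSAA ATV:ISO replicate 1 (0.0707) or 2 (0.069).

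Some other cells' markers moved with genotype. The 6 T and NK cell markers summed to 1.444 to 1.88 CPM in AppSAA ATV:ISO mice and to 0.2441 to 0.7675 CPM in WT ATV:ISO mice, where Trac and Ncr1 were at 0 in all 4. Only 1 of the 6, Klrb1c, passed the filter on low counts, and it was called higher. The 4 endothelial markers summed to 37.53 to 52.39 CPM against 18.25 to 24.51 CPM, with 1 called higher and 1 lower. The 7 microglia markers summed to 18700 to 20800 CPM against 23840 to 25040 CPM, with 1 called higher and 5 lower. B cell markers summed to 17.34 to 20.38 CPM against 26.92 to 30.5 CPM and neuron markers to 0.325 to 0.7475 CPM against 1.123 to 1.766 CPM, each with 1 called lower. The WT B cell sum came from Cd79b alone, since Cd79a and Ms4a1 were at 0 in all 4 WT ATV:ISO mice. Only 1 of the 3 B cell markers was tested. The monocyte marker Ly6c2 (2.96, adjusted p = 0.0454) and the oligodendrocyte marker Mbp (0.48, adjusted p = 0.0142) were called higher, while the sums of their lists overlapped between the groups. The part of these shifts in the class I difference was not tested.

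The immunoproteasome genes, Tap1, Tapbp and H2-K1 were higher with ATV:4D9 in AppSAA mice, while H2-D1 and B2m were not called. Of the 10 genes, 6 rose over ATV:ISO and none fell, against 27.9% of all genes called higher and 27.1% lower. Tap1 rose 2.217-fold (log2 1.15 ± 0.11 SE, adjusted p = 5.27e-08), Psmb10 1.57-fold (adjusted p = 0.000174), Psmb8 1.471-fold (adjusted p = 0.000489), H2-K1 1.43-fold (adjusted p = 0.000248), Psmb9 1.426-fold (adjusted p = 0.000246) and Tapbp 1.236-fold (adjusted p = 0.0022). For each of the 6, all 4 ATV:4D9 mice were above all 4 ATV:ISO mice, with no share of all genes counted beside this. H2-D1 (log2 -0.03 ± 0.14), B2m (0.09 ± 0.09) and H2-T23 (0.18 ± 0.12) did not pass the test, nor did Tap2 (0.31 ± 0.14, adjusted p = 0.0582). Thus, of the 4 genes with the largest genotype differences under ATV:ISO, H2-K1 and Tap1 were called again with the antibody and H2-D1 and B2m were not. These comparisons share the AppSAA ATV:ISO mice. The pool as a block added H2-T23 (0.17, adjusted p = 0.0394) and Tap2 (0.31, adjusted p = 1.14e-06), in a fit that called 70.7% of all genes. Tap2 was also called with totals not scaled by TMM (0.24, adjusted p = 0.0488), with cells of 1000 to 25000 UMIs (0.0405) and without AppSAA ATV:ISO replicate 1 (0.0355) or AppSAA ATV:4D9 replicate 4 (0.0132), and H2-T23 without the latter (0.0364). Without the cells of cluster 5 (described below), Tapbp was not called (0.13, adjusted p = 0.156). Markers of other cells moved both ways here. T and NK cell markers summed to 0.2328 to 0.5809 CPM and endothelial markers to 13.23 to 26.16 CPM with ATV:4D9, both below the ATV:ISO mice. Monocyte markers summed to 9.275 to 12.76 CPM against 3.737 to 8.73 CPM, with Plac8 called higher (2.74) and Ccr2 and Ly6c2 called lower. The microglia markers summed to 13520 to 15680 CPM, and 5 of 7 were called lower. The part of these shifts in the result was not tested.

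In WT mice ATV:4D9 raised 3 of the 10 genes, against 30.8% of all genes called higher and 32.5% lower, so the count of members was near the background. Tap1 rose 1.731-fold (log2 0.79 ± 0.11, adjusted p = 5.19e-06), H2-K1 1.442-fold (adjusted p = 0.000138) and Psmb8 1.304-fold (adjusted p = 0.00773). H2-T23 fell by 0.39 ± 0.12 on the log2 scale (adjusted p = 0.00938) relative to the UMI total, although per cell it rose by 0.44 (adjusted p = 0.00101). The WT groups overlapped for H2-T23. H2-D1 (0.11), B2m (0.19, adjusted p = 0.065), Tap2 (-0.04), Tapbp (-0.06), Psmb9 (-0.02) and Psmb10 (0.16) did not pass. B2m was called with the pool as a block (0.20, adjusted p = 0.0129), as was Psmb10 (0.16, adjusted p = 0.00995), in a fit that called 74.6% of all genes. B2m was also called by DESeq2 (0.23, adjusted p = 0.0137), with DESeq2's size factors in edgeR (0.0296), with no filter (0.0216), with cells of 1000 to 25000 UMIs (0.0309), per cell (1.03) and without WT ATV:ISO replicate 4 (0.0423) or WT ATV:4D9 replicate 2 (0.0214), so its call depended on the setting. The microglia markers summed to 16330 to 17880 CPM with ATV:4D9 against 23840 to 25040 CPM with ATV:ISO, and the endothelial markers to 9.544 to 13.07 CPM against 18.25 to 24.51 CPM. B cell, oligodendrocyte and neuron markers also summed lower with no overlap, the B cell sum with ATV:ISO coming from Cd79b alone. Of the monocyte markers Plac8 was called higher (1.45) and Ccr2 lower (-0.88). The part of all these markers in the result was not tested.

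With 4D9 that lacked the transport vehicle, none of the 10 genes passed the test against ATV:ISO in AppSAA mice, and 0.0% of all genes were called in either direction by edgeR's quasi-likelihood test. At an unadjusted p under 0.05, 79 genes and 0 of the 10 were found. DESeq2 called 1 gene and limma-voom 0, none of them among the 10. H2-K1 was 778.6, 812.1, 749.1 and 798.3 normalised CPM and Tap1 42.62, 42.48, 41.17 and 41.43 in 4D9 mice. All 4 Tap1 values lay below the 4 of ATV:ISO (log2 -0.14 ± 0.11), which did not pass. The log2 differences of the other 9 genes ran from -0.04 to 0.01, each with an SE of 0.08 to 0.14. Against 4D9, ATV:4D9 raised 6 genes and lowered none, beside 27.6% of all genes called higher and 26.7% lower. They were Tap1 (2.435-fold, adjusted p = 1.15e-08), Psmb10 (1.558-fold), H2-K1 (1.474-fold), Psmb9 (1.459-fold), Psmb8 (1.457-fold) and Tapbp (1.237-fold, adjusted p = 0.00216), and this contrast uses the same ATV:4D9 mice as the one against ATV:ISO. The pool as a block gave 8, adding H2-T23 (0.17, adjusted p = 0.0484) and Tap2 (0.30, adjusted p = 1.46e-06), in a fit that called 69.9% of all genes. Without AppSAA ATV:4D9 replicate 4 both were also called (adjusted p = 0.0388 and 0.0143), and Tap2 was called without 4D9 replicate 1 (0.0235), with totals not scaled by TMM (0.0466) and with cells of 1000 to 25000 UMIs (0.0483). Without cluster 5, Tapbp was not called (0.12, adjusted p = 0.162). In 4D9 mice T and NK cell markers summed to 1.453 to 2.279 CPM, endothelial markers to 38.98 to 49.39 CPM and monocyte markers to 5.235 to 8.283 CPM, none overlapping the ATV:4D9 mice. Of the 3 monocyte markers, 1 was called higher with ATV:4D9 and 2 lower, and of the 4 endothelial markers 0 higher and 2 lower. The part of these shifts was not tested.

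**Figure D2:**
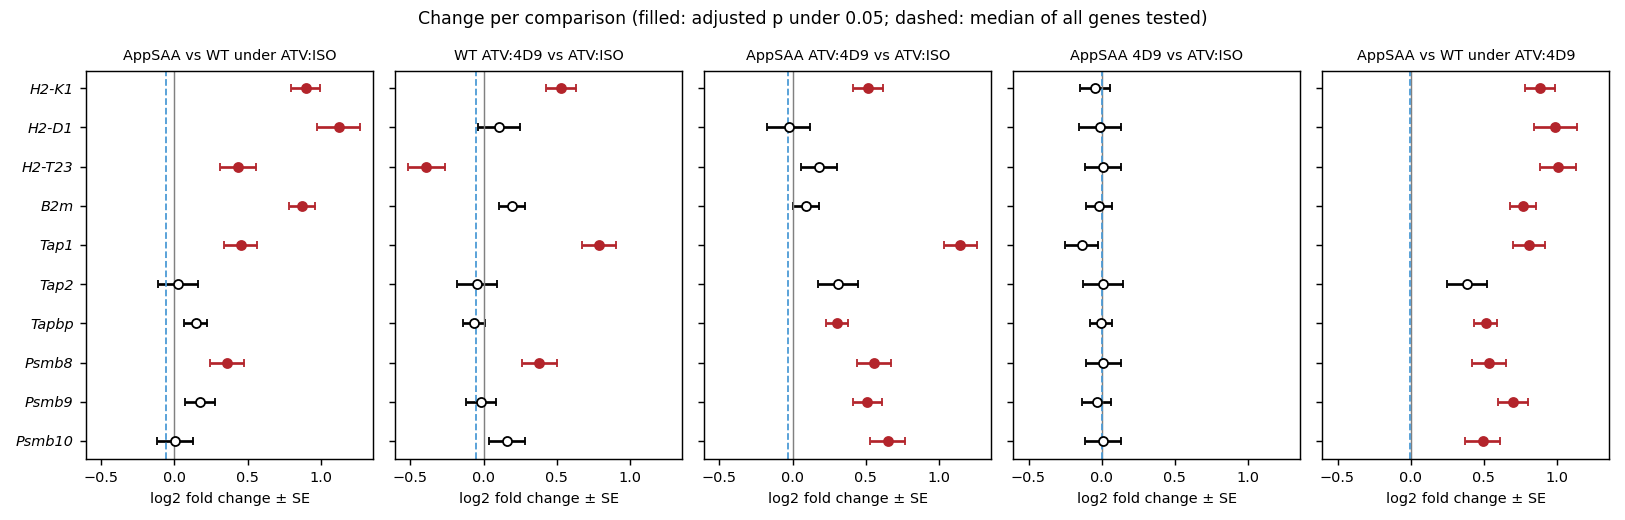
Log2 fold change ± SE (x axis) of each gene (y axis) in 5 comparisons of 4 mice against 4, filled red where the adjusted p of edgeR's quasi-likelihood test was under 0.05, with the median of all genes tested as a dashed line. H2-D1 (1.13) leads the genotype comparison under ATV:ISO and Tap1 (1.15) the ATV:4D9 comparison in AppSAA mice, and no gene is filled for 4D9 without the vehicle.

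Among mice given ATV:4D9, 9 of 10 genes were higher in AppSAA than in WT mice and none lower, against 7.84% of all genes called higher and 3.98% lower. H2-T23 rose 2.01-fold (log2 1.01 ± 0.12, adjusted p = 9.5e-06), H2-D1 1.987-fold, H2-K1 1.847-fold, Tap1 1.754-fold, B2m 1.706-fold, Psmb9 1.626-fold, Psmb8 1.449-fold, Tapbp 1.428-fold and Psmb10 1.407-fold (adjusted p = 0.0104, the highest of the 9). Tap2 (1.305-fold, adjusted p = 0.076) did not pass, and passed with the pool as a block (0.38, adjusted p = 6.95e-07), in a fit that called 31.4% of all genes. It also passed without WT ATV:4D9 replicate 1 (adjusted p = 0.028) or AppSAA ATV:4D9 replicate 4 (0.0305) and per cell (0.0416). Without cluster 5, Psmb10 was not called (0.34, adjusted p = 0.11), and per cell Tapbp was not (0.40, adjusted p = 0.161). The median log2 difference of the 10 genes was 0.74 and that of all genes tested -0.01. Monocyte markers summed to 9.275 to 12.76 CPM in AppSAA and 5.554 to 6.689 CPM in WT mice, endothelial markers to 13.23 to 26.16 against 9.544 to 13.07 CPM and microglia markers to 13520 to 15680 against 16330 to 17880 CPM. T and NK cell sums overlapped, though the 1 tested of their 6 markers was called higher (1.99). Of the endothelial markers 1 was called higher and 1 lower, of the monocyte markers 1 higher and 0 lower, and of the 7 microglia markers 0 higher and 2 lower. The part of these shifts was not tested.

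The difference between the ATV:4D9 changes of AppSAA and WT mice was tested directly. It was called for 3 of 10 genes, all with the log2 change in AppSAA mice above that in WT mice, against 3.79% of all genes called in this direction and 5.35% in the other. For H2-T23 the difference was 0.57 ± 0.17 on the log2 scale (adjusted p = 0.0448), between a change of -0.39 in WT mice, which was called, and of 0.18 in AppSAA mice, which was not. The difference was 0.53 ± 0.14 for Psmb9 (adjusted p = 0.0225) and, for Tapbp, 0.37 ± 0.11 (adjusted p = 0.0359). For H2-K1 it was -0.01 ± 0.14 and for B2m -0.10 ± 0.13, neither called. The calls were not stable. No member was called without cluster 5, without AppSAA ATV:4D9 replicate 3, without WT ATV:4D9 replicate 3, with no filter on low counts, or per cell. With either mouse left out or no filter, the differences were 0.51 to 0.52 for H2-T23, 0.31 to 0.36 for Tapbp and 0.47 to 0.50 for Psmb9. Without cluster 5, which was made from expression with these genes included, they were 0.40, 0.23 and 0.40. Per cell they were 0.23, 0.02 and 0.18, where the median of all genes was -0.30. The H2-T23 call was also lost without WT ATV:ISO replicate 1, 2 or 3, WT ATV:4D9 replicate 2 or 4, any 1 AppSAA ATV:ISO mouse, or AppSAA ATV:4D9 replicate 1 or 2 (adjusted p of 0.0519 to 0.0983). Tapbp was lost without WT ATV:ISO replicate 1, 3 or 4, WT ATV:4D9 replicate 2, AppSAA ATV:ISO replicate 1 or 2, or AppSAA ATV:4D9 replicate 4 (0.0543 to 0.0863), and Psmb9 without WT ATV:ISO replicate 2, WT ATV:4D9 replicate 4 or AppSAA ATV:ISO replicate 4 (0.0505 to 0.0516). The pool as a block gave 6, adding Tap1 (0.36, adjusted p = 0.0185), Tap2 (0.35, adjusted p = 0.000129) and Psmb10 (0.48, adjusted p = 9.52e-05), in a fit that called 30.5% of all genes.

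These differences are relative to the UMI total of a mouse, and ATV:4D9 cells held more UMIs. On the scale of UMIs per cell, the median of all genes was 0.79 (log2) with ATV:4D9 over ATV:ISO in WT mice, 0.47 in AppSAA mice and 0.18 for AppSAA over WT under ATV:ISO. On that scale all 10 genes were called higher with ATV:4D9 in both genotypes, but so were 68.2% of all genes in WT and 52.1% in AppSAA mice. In WT mice H2-T23 (0.44) and Tapbp (0.78) were below the median of all genes, and Tap2 (0.80) and Psmb9 (0.83) were close above it. In AppSAA mice, Tap1 (1.64), Psmb10 (1.15), Psmb8 (1.06), H2-K1 (1.01) and Psmb9 (1.01) stood furthest above the shift of 0.47, and B2m (0.59) and H2-D1 (0.48) were nearest to it. H2-D1 rose from 15.56 ± 1.942 UMIs per cell (SD, n = 4) with ATV:ISO to 21.67 ± 2.512 with ATV:4D9. Tap1 rose from 0.519 ± 0.06035 to 1.62 ± 0.2199 UMIs per cell. Which of the scales stands for a cell's protein output was not measured.

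The neighbouring parts of the pathway were read from lists chosen with earlier results of these data known. Each count is to be read beside the share of all genes called, which was 14.4% higher and 13.7% lower for AppSAA over WT mice under ATV:ISO, 27.9% and 27.1% for ATV:4D9 in AppSAA mice and 30.8% and 32.5% for ATV:4D9 in WT mice. Of 14 other class I and class I-like genes, 12 were tested, and 7 were called higher and 2 lower in AppSAA over WT mice under ATV:ISO, led by H2-Q7 (log2 1.67), H2-Q6 (1.60), H2-Q4 (0.84) and H2-T10 (0.75). With ATV:4D9 in AppSAA mice, 6 were higher and 3 lower, among them H2-Q6 (1.13), H2-T10 (1.03) and H2-T24 (0.99), and Mr1, which presents vitamin B metabolites, at -1.03. In WT mice 2 were higher and 4 lower, beside 30.8% and 32.5% of all genes. Of the 6 loading and trimming genes, 4 rose with ATV:4D9 in AppSAA mice (Calr, a chaperone of the loading complex, by 1.03, Pdia3, the disulfide isomerase partner of Tapbp, by 0.80, Erap1, which trims peptides, by 0.45, and Canx by 0.35), and 4 rose and 2 fell in WT mice, where the count that fell was near the 32.5% of all genes. Under ATV:ISO none was higher and 1, Lnpep (-0.31), lower in AppSAA mice.

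Proteasome partners rose with the antibody in both genotypes. All 6, the activator subunits Psme1 and Psme2, the assembly factor Pomp and the constitutive subunits Psmb5, Psmb6 and Psmb7, were called higher with ATV:4D9 in WT and in AppSAA mice, beside 30.8% and 27.9% of all genes. Psme2 rose by 1.03 in WT and 1.18 in AppSAA mice on the log2 scale. Psmb7 rose by 0.79 in WT and 0.75 in AppSAA mice. Under ATV:ISO, 3 of 6 were higher in AppSAA mice, beside 14.4% of all genes, Psmb6 (0.39), Psme1 (0.39) and Pomp (0.39).

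Among 14 regulators, ATV:4D9 in AppSAA mice went with 5 higher and 5 lower, a count near the 27.9% and 27.1% of all genes. Among the higher ones were Nlrc5 (log2 1.49, adjusted p = 5.52e-05), the transactivator of class I genes, and Stat2 (1.35, adjusted p = 8.16e-10), which carries the type I interferon signal to the nucleus. Ifngr1, a chain of the interferon gamma receptor, fell by 0.57. In WT mice 3 were higher and 6 lower, beside 30.8% and 32.5% of all genes, with Nlrc5 at 0.93 and Ifngr1 at -1.01. Under ATV:ISO, 3 were higher and 3 lower in AppSAA mice, beside 14.4% and 13.7% of all genes, with Ifngr1 at -0.61. The log2 change with ATV:4D9 was called higher in AppSAA than in WT mice for 4 of 14 regulators and lower for 0, beside 3.79% and 5.35% of all genes. The 4 included Stat2 (difference 1.01, adjusted p = 0.00014), Irf1 (0.69) and Irf2 (0.38).

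Class II genes present peptides from outside the cell. Of 7, 6 were higher in AppSAA than in WT mice under ATV:ISO, beside 14.4% of all genes, with H2-Aa at 2.98 and Cd74, the class II chaperone, at 2.92 on the log2 scale. With ATV:4D9 in AppSAA mice none was higher and 5 were lower, beside 27.1% of all genes called lower, with Ciita, the class II transactivator, at -1.64 and H2-Aa at -1.26. In WT mice 1, Cd74 (1.05), was higher and 1, H2-DMa (-0.34), lower. The difference between the genotypes' antibody responses was called for 1 of 7, Cd74 (-1.47, adjusted p = 0.00706), beside 3.79% of all genes called higher and 5.35% lower.

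The deposited annotation placed the cells in 6 clusters at a resolution of 0.2, numbered 0 to 5 without names. The clusters were made from expression, these genes included, so levels between clusters are a description. In the 17 mice with at least 20 cells in cluster 5, that cluster held the highest level of any cluster in 17 of 17 mice for H2-K1, H2-T23, Tap1, Tapbp, Psmb8, Psmb9 and Psmb10, and in 16 of 17 for Tap2. Tap1 averaged 166.7 ± 36.2 CPM (SD) in cluster 5 and 41.98 ± 8.266 in cluster 0, a log2 ratio within mice of 1.93 ± 0.39. H2-T23 averaged 448.5 ± 72.17 against 207.3 ± 34.25 CPM. H2-K1 averaged 1228 ± 244.7 against 573.6 ± 129.4 CPM.

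H2-D1 and B2m had a second high cluster. In cluster 1, H2-D1 averaged 1577 ± 216 CPM and B2m 3444 ± 395.9 CPM (16 mice), beside 1572 ± 462.1 and 3367 ± 560.7 CPM in cluster 5 and 876.1 ± 235.1 and 2067 ± 348.6 CPM in cluster 0. These means pool groups of unlike make-up, since cluster 1 was counted in 4 WT and 12 AppSAA mice. Within AppSAA ATV:ISO mice H2-D1 was 1549 ± 227.2 CPM in cluster 1 and 1860 ± 346.4 in cluster 5, and B2m 3471 ± 248.6 and 3531 ± 462.7. H2-K1 averaged 829.5 ± 97.24 CPM in cluster 1, above cluster 0 in 16 of 16 mice, but 841.4 ± 150.9 CPM in cluster 2, above cluster 0 in 20 of 20. Tap1 in cluster 1 averaged 40.38 ± 6.851 CPM, which was higher than in cluster 0 in 4 of 16 mice. Cluster 4 differed in another way. Its Tap1 (68.39 ± 14.65 CPM) was above cluster 0 in 16 of 16 mice, whereas its H2-T23 (140.2 ± 26.41 CPM) was below it in all 16. The constitutive subunit Psmb5 was highest in cluster 2, in 16 of 20 mice.

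**Figure D3:**
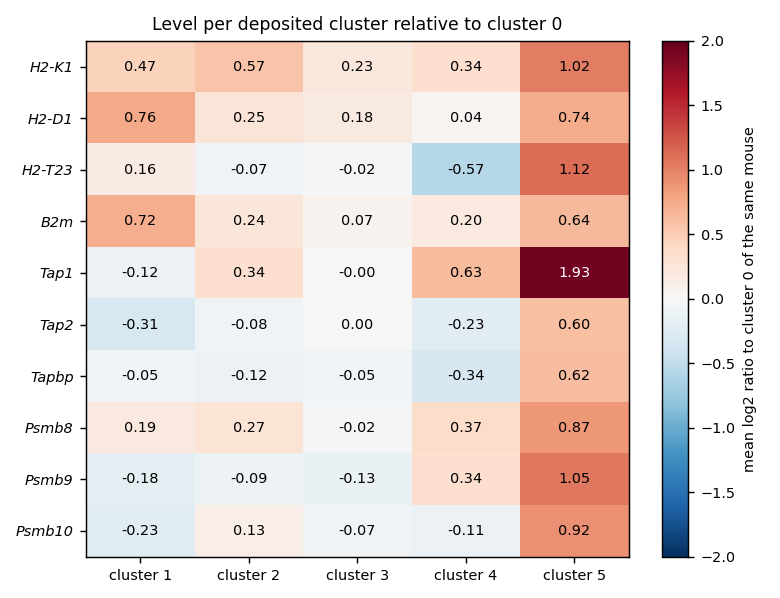
Mean log2 ratio of each gene's CPM (rows) in clusters 1 to 5 (columns) to its CPM in cluster 0 of the same mouse, over the 16 to 20 mice with at least 20 cells in the cluster, printed in each cell on a colour scale from -2 to 2. Cluster 5 is red for all 10 genes, from 0.60 for Tap2 to 1.93 for Tap1. Cluster 1 is red chiefly for H2-D1 (0.76), B2m (0.72) and H2-K1 (0.47), and H2-K1 is at 0.57 in cluster 2.

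The groups differed in how their cells spread over these clusters. Cluster 5 held on average 0.737% of cells in WT ATV:ISO, 4.209% in WT ATV:4D9, 2.481% in AppSAA ATV:ISO, 1.504% in AppSAA 4D9 and 22.4% in AppSAA ATV:4D9 mice. Cluster 1 held 1.412% in WT ATV:ISO and 38.26% in AppSAA ATV:ISO mice, and 13.53% in AppSAA ATV:4D9 mice. In WT ATV:4D9 mice, 47.78% of cells were in cluster 2 and 39.95% in cluster 4. The difference in CPM between mice of the same pool was therefore split, by arithmetic and with no test, into a part from the share of UMIs in each cluster and a part from the level within clusters. For ATV:4D9 over ATV:ISO in AppSAA mice, the share part made up 68.82% of the Tap1 difference (34.06 ± 1.716 of 49.49 ± 6.817 CPM, mean ± SD over 4 pools), 85.5% for Psmb9, 67.06% for Psmb10, 65.38% for Psmb8, 59.8% for H2-K1 and 35.59% for Tapbp. Both parts were above 0 in 4 of 4 pools for all 6. For AppSAA over WT mice under ATV:ISO, the share part was 51.79% for H2-D1, 40.45% for H2-K1, 60.46% for B2m, 76.98% for Psmb8, 40.27% for Tap1 and 36.5% for H2-T23. For H2-K1 in WT mice the share part was 222.6 ± 69.04 CPM and the level part -65.77 ± 88.97 CPM, so the difference between shares was larger than the whole difference. The split set no minimum of cells per cluster. Cluster 4 held on average 0.3512% of cells in WT ATV:ISO mice, under 20 in each. The parts of comparisons with these mice therefore rest partly on few cells. Scaling the CPM by the TMM factor, chosen after the data were seen, put the Tap1 share at 64.4% and Psmb9 at 73.84% for ATV:4D9 in AppSAA mice. For AppSAA over WT mice under ATV:ISO it put H2-D1 at 41.87%, H2-K1 at 31.04%, B2m at 47.37%, Psmb8 at 36.64%, Tap1 at 21.48% and H2-T23 at 20.35%. The level part of H2-K1 with ATV:4D9 in WT mice was then -15.13 CPM.

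Within clusters, H2-K1 and H2-D1 were also called higher in AppSAA mice under ATV:ISO. In cluster 0, H2-K1 was 689.3 CPM in AppSAA and 417.1 CPM in WT mice (log2 0.75 ± 0.09, adjusted p = 4.53e-05) and H2-D1 1092 against 607.2 CPM (0.88 ± 0.13, adjusted p = 0.000338). These 2 of 10 were called where 0.274% of all genes were. In cluster 3, H2-K1 (0.55 ± 0.10, adjusted p = 0.0157) and H2-D1 (0.63 ± 0.12, adjusted p = 0.0288) were called where 0.189% of genes were, but leaving out single mice gave 0 to 2 calls. H2-K1 was lost there without AppSAA ATV:ISO replicate 3 (adjusted p = 0.0893) and without WT ATV:ISO replicate 1 (0.0628) or 3 (0.0735). H2-D1 was lost without AppSAA ATV:ISO replicate 1 (0.076), 2 (0.0963) or 3 (0.0893) and without WT ATV:ISO replicate 1 (0.099), 3 (0.104) or 4 (0.0546). With the pool as a block, 6 genes were called in cluster 0, B2m (0.41, adjusted p = 3.49e-07) and H2-T23 (0.20, adjusted p = 0.00211) among them, and 5 in cluster 3, where the block called 4.61% and 1.64% of all genes. In cluster 1, where 3 WT mice had enough cells, and in cluster 2, 0 of 10 were called, beside 1.21% and 0.281% of all genes. At an unadjusted p under 0.05, 1 and 0 of the 10 were found, and the share of all genes at that level was not counted. Cluster 2 held on average 1.345% of cells in WT ATV:ISO and 2.338% in AppSAA ATV:ISO mice, so its comparison rests on few cells. A cluster holds cells picked by expression, so these values describe cells given the same number and not one fixed state.

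With ATV:4D9 in AppSAA mice, cluster 2 held most calls. There 6 of 10 genes were higher, against 13.2% of all genes called: Tap1 (74.17 against 45.7 CPM, log2 0.76 ± 0.14, adjusted p = 0.000409), Psmb8 (0.49), Psmb9 (0.46), H2-K1 (0.45), Psmb10 (0.44) and Tapbp (0.37). The Psmb9 and Psmb10 calls there were lost without AppSAA ATV:4D9 replicate 1 or without AppSAA ATV:ISO replicate 3 or 4, at adjusted p of 0.0633 to 0.115. In cluster 5, H2-K1 (0.38, adjusted p = 0.0329) and Tap1 (0.46, adjusted p = 0.0106) were higher, against 29.7% of genes called, so the count of members was not above the background. Leaving out single mice gave 1 to 4 calls there. The H2-K1 call was lost without AppSAA ATV:4D9 replicate 1 (adjusted p = 0.0573) or 3 (0.0894) and without AppSAA ATV:ISO replicate 2 (0.105) or 4 (0.0999), and the Tap1 call without AppSAA ATV:ISO replicate 3 (0.0623). In cluster 4, Tapbp (0.29) and Psmb10 (0.41) were higher, while H2-D1 fell by 0.40 (926.9 against 1219 CPM, adjusted p = 0.0309) and B2m fell by 0.37 (2337 against 2994 CPM, adjusted p = 0.00444), against 24.5% of genes called. This cluster held on average 0.9489% of cells in AppSAA ATV:ISO and 22.35% in AppSAA ATV:4D9 mice, so its ATV:ISO side rests on few cells. The H2-D1 call was lost without AppSAA ATV:4D9 replicate 4 (adjusted p = 0.0686) and without AppSAA ATV:ISO replicate 1 (0.141) or 3 (0.0596). The Psmb10 call there was lost without AppSAA ATV:4D9 replicate 1 (0.0738) or AppSAA ATV:ISO replicate 2 (0.0581). The Tapbp call was lost without AppSAA ATV:4D9 replicate 3 or 4 or AppSAA ATV:ISO replicate 2, 3 or 4, at adjusted p of 0.0509 to 0.118.

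In clusters 0, 1 and 3, 0 of 10 genes were called with ATV:4D9 in AppSAA mice, beside 0.667%, 1.51% and 4.33% of all genes. At an unadjusted p under 0.05, 1, 4 and 2 of the 10 were found, and the share of all genes at that level was not counted. Clusters 0 and 3 held on average 2.517% and 3.776% of cells in AppSAA ATV:4D9 mice, so that side rests on few cells. The pool as a block gave 5 in cluster 1, 2 in cluster 3 and 5 in cluster 5, where it called 7.77%, 12.6% and 37.2% of all genes. In WT mice 0 of 10 were called in clusters 0, 2 and 3, beside 1.47%, 5.88% and 6.17% of all genes. At an unadjusted p under 0.05, 2, 3 and 3 of the 10 were found in these clusters, again with no share of all genes counted. There the block gave 3 (1 higher, 2 lower), 1 (lower) and 4 (2 higher, 2 lower), where it called 8.96%, 11% and 17.5% of all genes. These comparisons also rest on few cells on 1 side. Cluster 2 held on average 1.345% of cells in WT ATV:ISO mice, and clusters 0 and 3 held 3.109% and 4.562% in WT ATV:4D9 mice.

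Among mice given ATV:4D9, a comparison within clusters added after the data were seen, AppSAA mice had higher H2-K1 in each of the 5 clusters compared. Its log2 difference was 0.63 ± 0.10 in cluster 0, 0.71 ± 0.11 in cluster 2, 0.55 ± 0.11 in cluster 3, 0.67 ± 0.11 in cluster 4 and 0.70 ± 0.13 in cluster 5. In cluster 0, 2 of 10 genes were called (H2-K1 and H2-D1) where 0.154% of all genes were. In cluster 2, 8 of 10 were called, all but Tap2 and Psmb10, where 2.07% of all genes were, and in cluster 4 7 of 10, all but Tap2, Tapbp and Psmb10, where 2.76% were. In cluster 3, H2-K1 alone was called where 0.163% were, and that call was lost without WT ATV:4D9 replicate 2, 3 or 4 or AppSAA ATV:4D9 replicate 1, 3 or 4 (adjusted p of 0.0533 to 0.208). In cluster 5, H2-D1 (0.93), H2-K1 and B2m (0.57) were called where 6.87% were, while Tap1 was lower in all 4 AppSAA mice (173.7 against 216.4 CPM, -0.24 ± 0.12, adjusted p = 0.286), which did not pass. The H2-D1 call in cluster 0 was lost without AppSAA ATV:4D9 replicate 1 (adjusted p = 0.0672), 2 (0.0828) or 4 (0.112) and without WT ATV:4D9 replicate 3 (0.0918) or 4 (0.085). In cluster 2 the count fell to 5 without WT ATV:4D9 replicate 2 or 3 or AppSAA ATV:4D9 replicate 3 and to 4 without WT ATV:4D9 replicate 4, the lost calls being among H2-D1, Tapbp, Psmb8 and Psmb9. With DESeq2's size factors in edgeR, Psmb8 was lost in cluster 2 (0.41, adjusted p = 0.0508). In cluster 4 Psmb8 was lost without WT ATV:4D9 replicate 2, 3 or 4 or AppSAA ATV:4D9 replicate 1, and with sums of at least 50 cells (0.43, adjusted p = 0.0635). The block gave 4 in cluster 0, 7 in cluster 3 and 5 in cluster 5, and 10 of 10 in clusters 2 and 4. It called 1.86%, 1.7%, 15.8%, 7.38% and 9.79% of all genes in clusters 0, 3, 5, 2 and 4. The difference between the genotypes' antibody responses, also added, was called for 0 of 10 genes in clusters 0, 2 and 3, beside 0.0%, 0.156% and 0.0% of all genes. At an unadjusted p under 0.05, 1, 7 and 0 of the 10 were found, and the share of all genes at that level was not counted. In cluster 2 the block called H2-K1 (0.62, adjusted p = 0.031) and 0.561% of all genes.

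**Figure D4:**
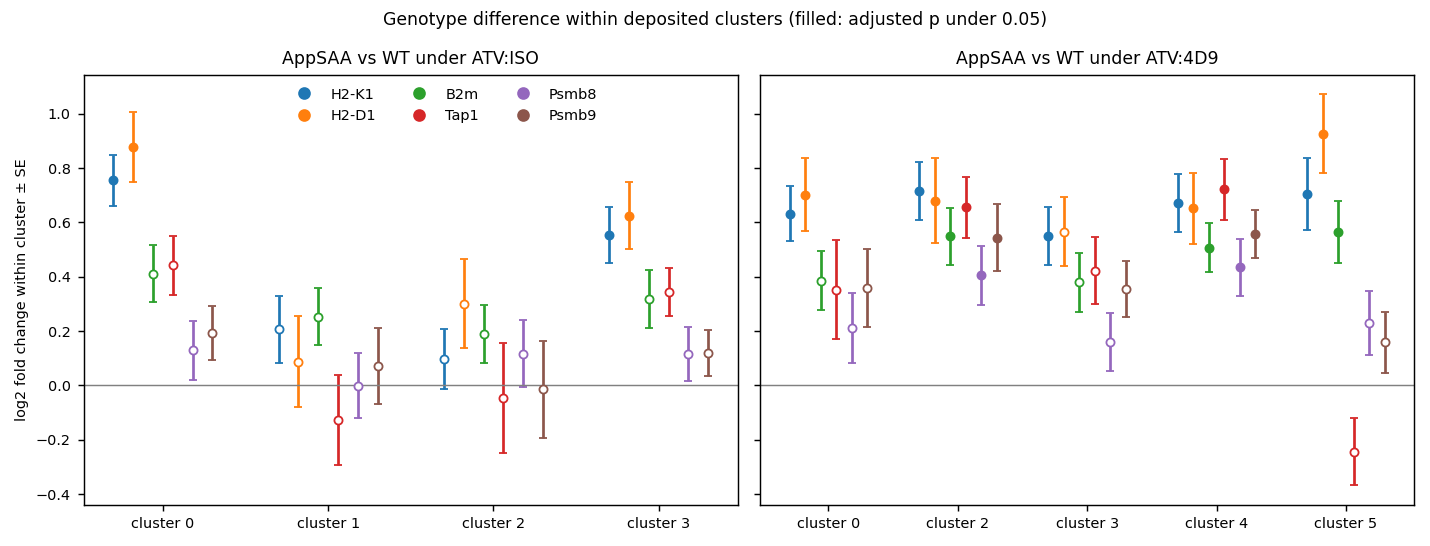
Log2 fold change ± SE (y axis) of AppSAA over WT mice within each cluster (x axis) for 6 of the genes, under ATV:ISO (left) and ATV:4D9 (right), filled where the adjusted p of edgeR's quasi-likelihood test was under 0.05. H2-K1 is filled in all 5 clusters under ATV:4D9 and in clusters 0 and 3 under ATV:ISO, and Tap1 in cluster 5 under ATV:4D9 lies at -0.24, unfilled.

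Each inducible proteasome subunit was set against the constitutive subunit it replaces, as the log2 ratio of their UMIs in a mouse, which no scaling changes. Psmb8 to Psmb5 was 0.994 ± 0.036 (SD, n = 4) in WT ATV:ISO, 0.613 ± 0.052 in WT ATV:4D9, 1.26 ± 0.08 in AppSAA ATV:ISO, 1.24 ± 0.06 in AppSAA 4D9 and 1.07 ± 0.10 in AppSAA ATV:4D9 mice. Psmb9 to Psmb6 was -0.544 ± 0.074 in WT ATV:ISO and -1.36 ± 0.07 in WT ATV:4D9 mice, and Psmb10 to Psmb7 0.810 ± 0.168 and 0.182 ± 0.215. In WT mice all 3 ratios were therefore lower with ATV:4D9, in 4 of 4 pools each, by 0.38, 0.81 and 0.63. With 4 mice against 4, an exact two-sided permutation test cannot go below p = 0.02857, and over the 12 ratio comparisons the lowest adjusted p was 0.06857, so none was called. The test did not pair mice by pool.

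In AppSAA mice the differences with ATV:4D9 were smaller, at -0.19 for Psmb8 to Psmb5 (exact permutation p = 0.05714, lower in 4 of 4 pools), -0.05 for Psmb9 to Psmb6 (p = 0.7714, higher in 1 of 4 pools) and -0.10 for Psmb10 to Psmb7 (p = 0.3714, lower in 4 of 4 pools). The last was -0.03393 without AppSAA ATV:4D9 replicate 4, -0.03523 without AppSAA ATV:ISO replicate 1 and -0.1747 without AppSAA ATV:ISO replicate 4. The rise of the inducible subunits there went with a rise of the constitutive ones, with Psmb5 at 129.3 ± 17.65 normalised CPM under ATV:ISO and 217.5 ± 45.82 under ATV:4D9. AppSAA over WT mice under ATV:ISO differed by 0.26 for Psmb8 to Psmb5 and by -0.22 for Psmb9 to Psmb6, both at the smallest p the exact test allows (adjusted p = 0.06857), and by -0.13 for Psmb10 to Psmb7 (exact permutation p = 0.4, lower in 4 of 4 pools). That value was -0.05443 without WT ATV:ISO replicate 1, -0.05596 without AppSAA ATV:ISO replicate 4 and -0.1954 without AppSAA ATV:ISO replicate 1. For 4D9 the 3 ratios differed by -0.01, -0.05 and 0.00.

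**Figure D5:**
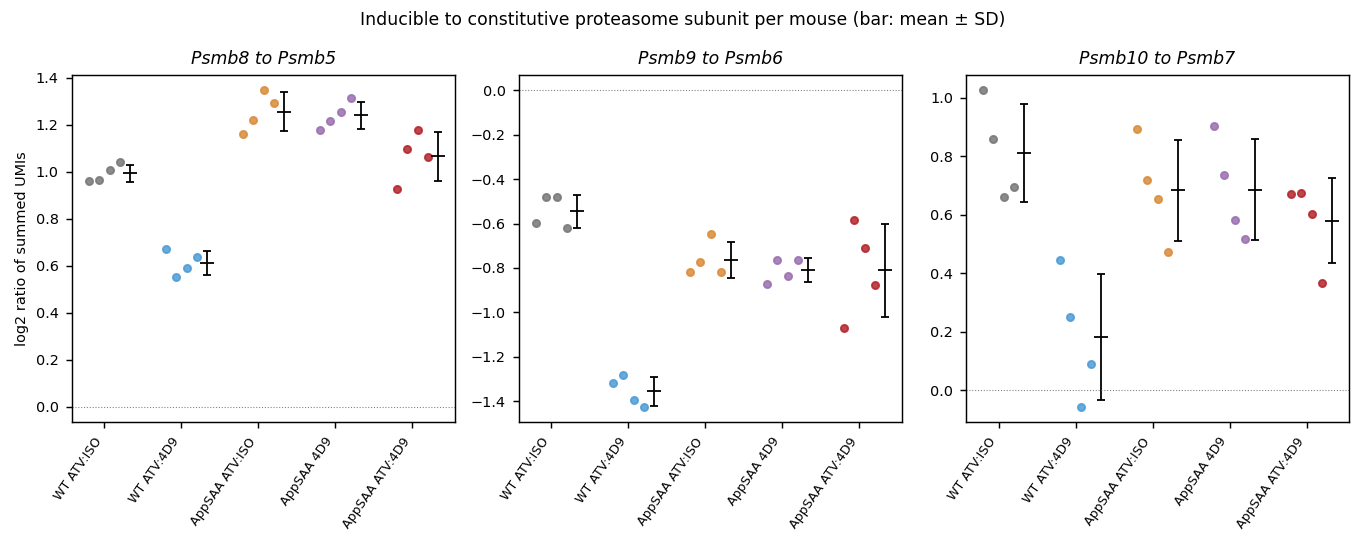
Log2 ratio of summed UMIs (y axis) of each inducible proteasome subunit to its constitutive counterpart in every mouse, by group (x axis), with a bar for the mean ± SD of 4 mice. All 3 ratios are lower in WT mice given ATV:4D9 than in WT mice given ATV:ISO, with no overlap.

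The genes' patterns were also compared over the 29 cluster-by-group means with at least 20 cells, as a description, since these points share mice and depth. Psmb8 followed the mean of the other 9 most closely (Pearson r = 0.90) and H2-D1 (0.57) and B2m (0.64) least. Among 8018 other genes with a mean of at least 10 CPM, those most like the mean z-score of the 10 were Fgl2 (0.97), Sp100 (0.95), Scimp (0.95), Nampt (0.94) and Stat2 (0.94).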

How the data were processed

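Per the labels and the study's methods, the authors sequenced 10x 3′ libraries with sample multiplexing, aligned them to mm10 with Cell Ranger 6.1.1, and deposited UMI counts per gene and cell with an annotation of mouse, group, pool and cluster. The counts are unnormalised. Counts were added up over all cells of a mouse, and over its cells of 1 cluster where it had at least 20 there. The split into share and level parts had no such minimum. No further cell filter or doublet call was applied. Depth was 17150296 to 102446549 UMIs per mouse.

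Sums were fitted with edgeR 4.0.16 (R 4.3.3) quasi-likelihood tests, TMM scaling and a filter on low counts, with all 5 groups in 1 fit and Benjamini-Hochberg adjustment over all genes tested. DESeq2 1.42.0 and limma 3.58.1 (voom) were alternatives, as were other scalings, no filter, cells of 1000 to 25000 UMIs, cluster sums of at least 50 cells, each mouse left out, and the pool as a block. The fit was also run on simulated counts drawn separately for each mouse with no pool effect. Same-pool mice deviated together in these data, so that run cannot vouch for the fit here. Ratios of subunits used exact permutation tests (scipy 1.17.1). From each pathway list, up to 4 called genes with the largest absolute log2 change were named, plus the 5 genes of at least 10 mean CPM most like the 10. Members and lists were chosen with earlier results of these data known. A listed regulator is not reported here by name, though it is in the counts.

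Each pool held 1 mouse of every group by the labels. Same-pool mice deviated together in 40 of 40 pairs (correlation 0.143 to 0.607), so pools pair the mice. The main fits and the permutation tests used the group alone and did not pair mice. The pool entered only as a block in the alternatives. The labels do not say more on housing or litter, so p-values measure the spread between these mice.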

Additional observations from a re-analysis of the deposited data

Results flagged for a closer look

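For 4 pairs of a gene and a group, 1 of the 4 mice stood apart from the other 3 by more than a gap test allows. That test takes mice as independent, where chance alone flags about 1 in 20 groups, whereas same-pool mice deviated together here. B2m was 3717 normalised CPM in AppSAA ATV:4D9 replicate 3, against 2931 to 3054 in the other 3 mice. Tap1 was 75.06 and Psmb9 107.5 in WT ATV:4D9 replicate 1, against 50.99 to 53.99 and 82.0 to 82.88. Tapbp was 149.6 in AppSAA 4D9 replicate 2, against 166.5 to 167.9. In every group, pool 1 held the highest Tap1 and pool 2 the lowest Tapbp. Psmb9 was highest in pool 1 in every group but AppSAA ATV:ISO.

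The log2 change with ATV:4D9 in AppSAA mice was above that in WT mice, by edgeR's interaction test, by 0.5698 for H2-T23 (adjusted p = 0.0448), 0.3698 for Tapbp (adjusted p = 0.0359) and 0.5276 for Psmb9 (adjusted p = 0.0225). H2-T23 changed by -0.39 in WT mice, which was called, and by 0.18 in AppSAA mice, which was not. None of the 3 was called without cluster 5, where the differences were 0.40, 0.23 and 0.40 (adjusted p of 0.189, 0.211 and 0.0885). That cluster was made from expression, these genes included. Each of the 3 calls was also lost when some single mice were left out.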

How the results depend on the processing

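Over 3730 gene values recomputed under the alternatives, 3268 kept direction and side of the threshold, 113 lost a call, 101 gained one, 6 reversed and 242 changed sign with no call on either side. The 6 reversed per cell: with ATV:4D9 in WT mice H2-T23 (0.4448), Tap2 (0.8001), Tapbp (0.7784) and Psmb9 (0.8285), and in AppSAA mice H2-D1 against ATV:ISO (0.4777) and against 4D9 (0.4492). Per cell, 10 genes were called with ATV:4D9 in WT mice, in AppSAA mice and against 4D9, where 68.2%, 52.1% and 49.0% of all genes were called higher. The difference between the genotypes' responses was called for 1 gene with DESeq2's size factors in edgeR, 0 per cell, 0 with no filter, 0 without cluster 5, 6 with the pool as a block (30.5% of all genes called), and 0 to 5 with single mice left out.

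With the replicate block, calls within clusters were 6 and 5 for genotype under ATV:ISO in clusters 0 and 3, 3, 1 and 4 for ATV:4D9 in WT mice in clusters 0, 2 and 3, 5, 2 and 5 for ATV:4D9 in AppSAA mice in clusters 1, 3 and 5, 4, 7 and 5 for genotype under ATV:4D9 in clusters 0, 3 and 5 (10 in clusters 2 and 4), and 1 for the interaction in cluster 2. In the same order, the block called 4.61% and 1.64%, then 8.96%, 11% and 17.5%, then 7.77%, 12.6% and 37.2%, then 1.86%, 1.7% and 15.8% (7.38% and 9.79%), and 0.561% of all genes. Leaving out single mice gave 0 to 2, 2 to 4 and 1 to 4 calls for ATV:4D9 in AppSAA mice in clusters 3, 4 and 5, 1 to 2, 4 to 9 and 0 to 2 for genotype under ATV:4D9 in clusters 0, 2 and 3, 0 to 2 for genotype under ATV:ISO and 0 to 1 for ATV:4D9 in WT mice in cluster 3, and 0 to 1 for the interaction in cluster 2. For 4D9 the ratio difference of Psmb10 to Psmb7 was -0.008692 with cells of 1000 to 25000 UMIs and -0.0719 to 0.07052 with single mice left out, and that of Psmb8 to Psmb5 -0.04711 to 0.01548. For ATV:4D9 in AppSAA mice Psmb9 to Psmb6 ran from -0.1225 to 0.03974. The share of all genes called with single mice left out was not counted, and the cause of these shifts was not tested.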
